A study of Rattus norvegicus with 9 samples.

Results

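miR-155-5p and miR-147 are microRNAs that immune cells make when they are activated. They were read here from small RNA sequencing of rat corneas as the rows of the deposited table named rno-miR-155-5p and rno-miR-147, 2 of 765 mature miRNAs. They were matched by name. Both rows were found, and both passed the filter on low values, an RPM (reads scaled to a library of a fixed size) of at least 5 in at least 3 libraries, together with 279 others (281 miRNAs tested). miR-155-5p was above 5 RPM in every library. miR-147 reached 5 RPM in the allografts and in 2 isografts, and in none of the normal corneas, so it passed the filter through the grafts.

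The corneas came from Wistar rats labelled as 6 weeks of age, with 3 libraries of allografts, 3 of isografts and 3 of normal corneas. By the meaning of these words an allograft comes from a genetically different donor and an isograft from a matched one, but the labels give Wistar for all groups and state neither the donor strain, the time after surgery nor the clinical state. All groups share the same RNA extraction and library kit in the labels. Libraries are named by the number in their title, 12, 34 or 56, and nothing in the labels says that they came from separate animals. The p-values therefore describe variation among these 9 libraries alone, which might be technical.

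miRNAs are short RNAs that guide silencing proteins to messenger RNAs through their seed, the bases near the 5′ end. miR-155 is cut from a non-coding transcript first known as BIC; it is induced in macrophages by Toll-like receptor ligands and in B and T cells by antigen receptors, and it represses Socs1 and Inpp5d, both brakes on cytokine and phosphoinositide signalling. miR-147 was described in mouse macrophages as a Toll-like receptor-induced miRNA that dampens inflammatory cytokine production. The cornea is free of vessels and poor in lymphocytes in its normal state, and a rejected graft is invaded by T cells and macrophages.

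The mature sequences show which seeds the measured reads carry and that the members are unrelated in sequence. They are printed 5′ to 3′ from RefSeq (build GRCr8), with the seed, bases 2 to 8, in capitals; a sequence was matched for 2 of 2 members.
rno-miR-155-5p: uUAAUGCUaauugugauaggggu
rno-miR-147: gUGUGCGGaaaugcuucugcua
rno-miR-155-3p: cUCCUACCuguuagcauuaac
The last is the other arm of the miR-155 hairpin. miR-155-5p lies at chr11:37261117-37261139 on the plus strand, miR-155-3p at chr11:37261156-37261176 on the plus strand and miR-147 at chr3:130176322-130176343 on the plus strand of GRCr8. None of the 3 seeds was found in another of the 693 rat mature miRNAs of that table. The nearest other mature sequence differed by 8 edits for miR-155-5p (miR-26b-5p) and by 9 for miR-147 (miR-143-5p), so neither has a near-identical copy there with which it could share reads.

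The hairpins show where these reads come from, with the annotated mature arms in capitals.
Mir155: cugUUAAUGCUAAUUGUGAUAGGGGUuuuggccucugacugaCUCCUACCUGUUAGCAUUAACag
Mir147: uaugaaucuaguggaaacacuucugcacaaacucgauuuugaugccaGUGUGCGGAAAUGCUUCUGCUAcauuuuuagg
In the same assembly the Mir155 hairpin of 65 bases lies inside the span of the non-coding host gene Mir155hg, also called Bic. The Mir147 hairpin of 79 bases lies inside the span of the protein-coding gene C3h15orf48, also called Nmes1, and 1 mature arm of it is annotated.

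RPM values moved in steps of 1 read, so whole reads were recovered. The denominators ran from 11001459 to 11013517 reads in every library but isograft 12, which alone had 12153889. The listed miRNAs held 26.4% to 65.6% of these reads. The corneal epithelial marker miR-184 averaged 41540 ± 15232 RPM in allografts, 136818 ± 6200 RPM in isografts and 288696 ± 65850 RPM in normal corneas (SD, n = 3 each), so the defining marker of corneal epithelium was present in all groups. Isograft 12 stood apart from its group: it differed from the other isografts by a chi-square per degree of freedom of 810 and 807, against 70.5 between those 2. Among allografts the same measure was 161 between 12 and 34, 364 between 12 and 56 and 278 between 34 and 56, so by it library 56 was the farthest. Allograft 34 had the lowest share of listed miRNAs, 26.4%, and was the highest allograft in the red blood cell marker miR-451-5p at 120 RPM, as isograft 12 was among isografts at 69.5 RPM. Normal corneas 12, 34 and 56 were at 121, 31.9 and 141 RPM, so this marker sets the 2 grafts apart only within their groups.

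Many miRNAs differed between the groups, and the members are read against that background; a miRNA is called where its limma adjusted p is under 0.05. Between allografts and normal corneas 47.3% of the 281 tested miRNAs were called, 23.1% higher and 24.2% lower; 29.9% were higher and 30.2% lower with no overlap. Between isografts and normal corneas 21.4% were called, 16.7% higher and 4.63% lower; 22.4% were higher and 11% lower with no overlap. Between allografts and isografts 34.5% were called, 13.5% higher and 21% lower; 16.4% were higher and 22.4% lower with no overlap. The counts between allografts and isografts, 38 higher and 59 lower, depended on single libraries. They were 24 and 28 without allograft 12, 23 and 19 without allograft 34, 22 and 77 without allograft 56, 33 and 113 without isograft 12, 42 and 32 without isograft 34, and 41 and 36 without isograft 56.

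miR-155-5p was highest in allografts, lower in isografts and lowest in normal corneas, and no group overlapped another. It was at 337, 255 and 476 RPM in allografts 12, 34 and 56, from 2809 to 5236 reads. It was at 31.4, 55.5 and 51.0 RPM in isografts 12, 34 and 56, from 382 to 611 reads, and at 6.81, 6.63 and 7.72 RPM in normal corneas 12, 34 and 56, from 73 to 85 reads. The lowest allograft thus stood above the highest isograft, and the lowest isograft above the highest normal cornea. Counting error was small beside these steps: the exact Poisson 95% interval was 246 to 265 RPM for the lowest allograft and 6.17 to 9.55 RPM for the highest normal cornea, and covers counting error only. By abundance miR-155-5p held ranks 61, 69 and 70 in the allografts, 142, 145 and 146 in the isografts and 219, 230 and 224 in the normal corneas.

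Against normal corneas miR-155-5p rose in allografts by 5.43 on the log2(RPM + 1) scale (SE 0.39, 95% interval 4.63 to 6.23, limma, Benjamini-Hochberg adjusted p = 2.4e-12), and mean RPM was 50.5 times that of normal corneas. In isografts it rose by 2.51 (SE 0.39, interval 1.71 to 3.31, limma adjusted p = 1.1e-05), with mean RPM 6.52 times that of normal corneas. Allografts exceeded isografts by 2.92 (SE 0.39, interval 2.12 to 3.72, limma adjusted p = 1.2e-06), with a ratio of mean RPM of 7.74. Exact permutation tests over libraries gave two-sided p = 0.1 in each of the 3 comparisons, the smallest that 3 against 3 allows.

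miR-147 was scarce, and its rise was seen in allografts. It was at 27.2, 24.4 and 39.3 RPM in allografts 12, 34 and 56 (299, 269 and 432 reads). It was at 1.89, 6.27 and 6.27 RPM in isografts 12, 34 and 56 (23, 69 and 69 reads). It was at 1.54, 2.63 and 1.91 RPM in normal corneas 12, 34 and 56 (17, 29 and 21 reads). Every allograft lay above every isograft and every normal cornea, while isograft 12 lay within the range of the normal corneas, so those 2 groups overlapped. The Poisson interval of isograft 12, 1.2 to 2.84 RPM, covers the value of each normal cornea, while those of isografts 34 and 56 began at 4.88 RPM.

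In allografts miR-147 rose by 3.36 against normal corneas (SE 0.39, interval 2.56 to 4.15, limma adjusted p = 2.8e-08), with mean RPM 14.9 times that of normal corneas, and by 2.52 against isografts (SE 0.39, interval 1.73 to 3.31, limma adjusted p = 1.4e-05), with a ratio of 6.30. In isografts against normal corneas its log2 fold change was 0.84 (SE 0.39, interval 0.04 to 1.63) and did not pass (unadjusted p = 0.039, limma adjusted p = 0.15). Over 23 alternatives it was above 0 in each and passed in 6, with adjusted p between 0.00068 and 0.44. Without isograft 12 it was 1.28 (limma adjusted p = 0.0018), and in the count models on recovered reads it was 1.04 (edgeR adjusted p = 0.011) and 1.05 (DESeq2 adjusted p = 0.0027). Since miR-147 was near the pseudocount of 1 RPM in normal corneas, the log2(RPM + 1) scale understates its changes; with a pseudocount of 0.1 RPM the difference between allografts and normal corneas was 3.84.

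**Figure D1:**
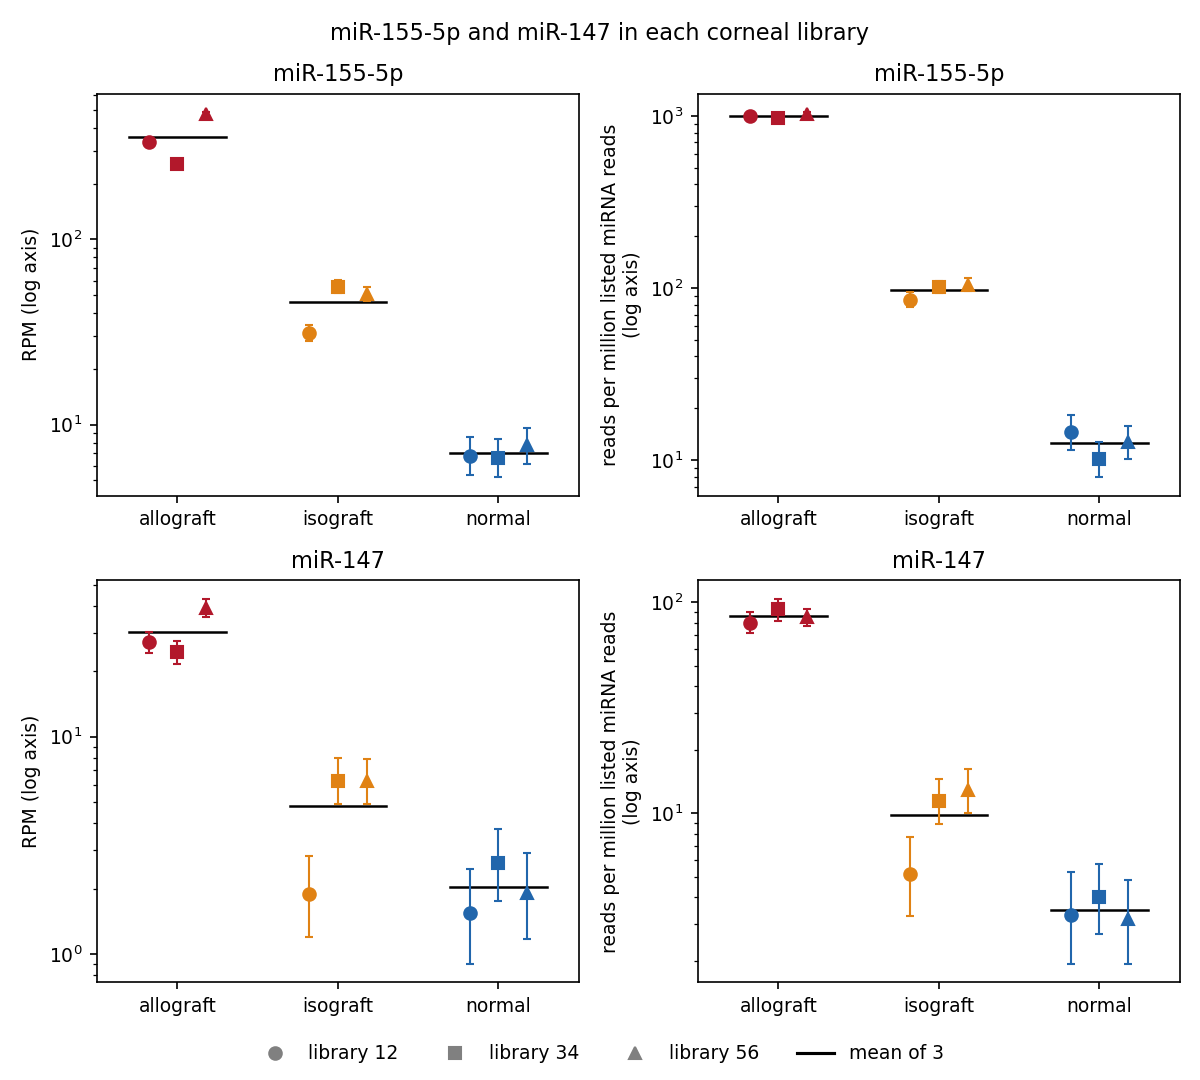
miR-155-5p (top) and miR-147 (bottom) in each library, in RPM (left) and in RPM of listed miRNA reads, with their sum as the denominator (right), on log axes. Symbols mark libraries 12, 34 and 56, bars on symbols are exact Poisson 95% intervals and black lines are means of 3; the allografts lie above all other libraries in every panel, and isograft 12 lies among the normal corneas for miR-147 in RPM.

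Among all tested miRNAs miR-155-5p ranked 5 of 281 from the highest fold change in allografts against normal corneas, between miR-363-3p at 5.58, of a cluster related to miR-17-92, and the lymphocyte miR-150-5p at 5.23. It ranked 17 in isografts against normal corneas, between the pan-leukocyte miR-142-5p at 2.52 and miR-542-3p at 2.40, and 7 in allografts against isografts, between miR-20b-5p at 3.32 and miR-150-3p at 2.66. miR-147 ranked 17 in allografts against normal corneas, between miR-21-3p at 3.39 and the endothelial miR-126a-5p at 3.29, and 9 in allografts against isografts, between miR-150-3p at 2.66 and the myeloid miR-223-3p at 2.24. In isografts against normal corneas miR-147 ranked 58, between miR-27b-5p at 0.84 and miR-100-5p at 0.82. The 3 comparisons share libraries, so these ranks are not independent of each other.

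**Figure D2:**
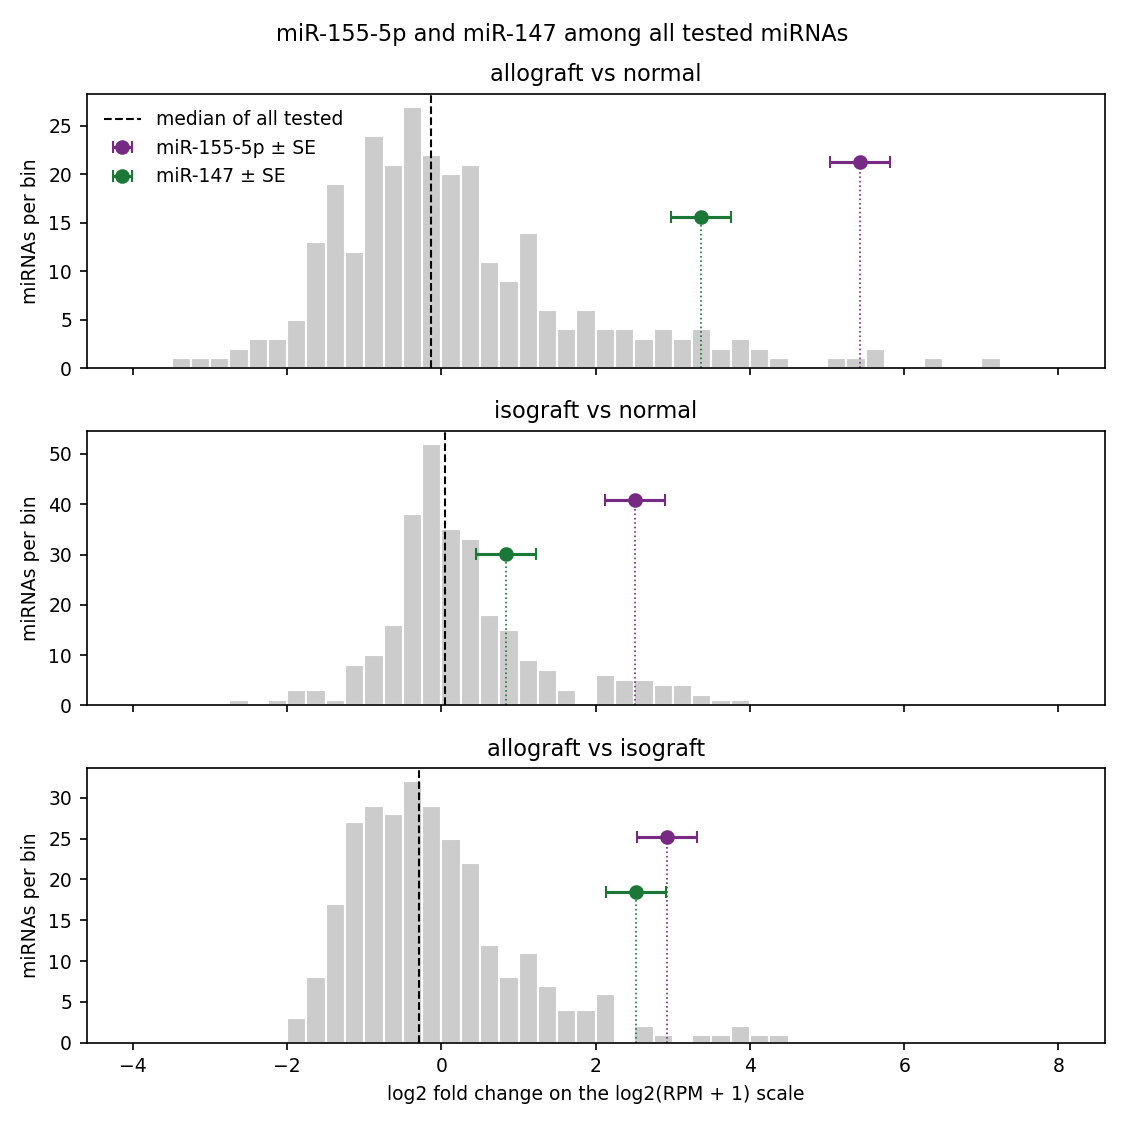
Fold changes of all 281 tested miRNAs (grey histogram, x axis in log2 fold change on the log2(RPM + 1) scale, y axis in miRNAs per bin) with miR-155-5p and miR-147 marked with their SE and the median of all miRNAs as a dashed line. Both lie in the right tail in the allograft panels, while miR-147 at 0.84 lies in the main body in isografts against normal corneas, where miR-155-5p is at 2.51.

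The steps between the groups were compared within the same fit. For miR-155-5p the difference between allografts and isografts exceeded that between isografts and normal corneas by 0.41 (SE 0.68, interval -0.97 to 1.80, limma adjusted p = 0.79), so no difference between the steps was detected; scaled by the median of ratios it was 0.72 and passed (limma adjusted p = 0.039). For miR-147 the second step exceeded the first by 1.68 (SE 0.67, interval 0.31 to 3.06), which did not pass after adjustment (unadjusted p = 0.018, limma adjusted p = 0.087). In the count models it passed, at 1.92 (edgeR adjusted p = 0.0083) and 1.90 (DESeq2 adjusted p = 0.00087). Among all miRNAs 11.7% were called in this contrast, 1.78% for a larger second step and 9.96% for a larger first one. Isograft 12 enters both steps: without it the values were -0.08 for miR-155-5p and 0.80 for miR-147.

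The members differed in how far they moved. The RPM of miR-155-5p was 12.4, 10.4 and 12.1 times that of miR-147 in allografts 12, 34 and 56, 16.6, 8.86 and 8.13 times in isografts, and 4.41, 2.52 and 4.05 times in normal corneas. A linear ratio within a library does not depend on the RPM denominator, and the grafts stood above the normal corneas in each of these values. A ratio on the log2(RPM + 1) scale does depend on it, through the pseudocount. On the log2(RPM + 1) scale the ratio was 3.49 ± 0.14 in allografts, 3.09 ± 0.35 in isografts and 1.42 ± 0.31 in normal corneas (SD, n = 3 each). The difference was 2.07 between allografts and normal corneas and 1.67 between isografts and normal corneas, with no overlap in either (exact permutation, two-sided p = 0.1, the smallest possible; 0.129 after adjustment over the 9 ratio comparisons tested). Between allografts and isografts it was 0.40, with overlap (exact permutation p = 0.2, adjusted 0.225), and depended on the pseudocount, at 0.16 with 0.1 RPM, 0.28 with 0.5 RPM and 0.95 with 5 RPM. The linear ratio of isograft 12 was above that of every allograft. With 0.1 and 5 RPM the difference between allografts and normal corneas was 1.76 and 2.55. That between isografts and normal corneas was 1.59 and 1.6. In RPM both members were highest in library 56 and lowest in library 34 within allografts, the order of the share of reads from listed miRNAs in these libraries.

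The share of reads from listed miRNAs was 33.9%, 26.4% and 46.3% in allografts 12, 34 and 56. In RPM of listed miRNA reads, with their sum as the denominator, miR-155-5p was at 993, 965 and 1027 in the allografts, at 85.3, 102 and 104 in the isografts and at 14.6, 10.1 and 12.7 in the normal corneas. Its coefficient of variation in allografts was then 3.11%, against 31.3% in RPM; over the 281 tested miRNAs the median was 14.3% on the scale of listed reads and 32.8% in RPM, and miR-155-5p ranked 9 from the smallest on the scale of listed reads. In normal corneas the coefficient of variation of miR-155-5p was larger on that scale, 18.1%, against 8.29% in RPM. miR-147 was at 80.04, 92.5 and 84.7 RPM of listed miRNA reads in the allografts, at 5.14, 11.5 and 12.8 in the isografts and at 3.31, 4.02 and 3.14 in the normal corneas. Within allografts miR-147 was thus highest in library 34 on that scale, where miR-155-5p was lowest, so the members' shared order in RPM was not kept. For miR-147 isograft 12 stood above the normal corneas, its Poisson interval overlapping theirs, and the isograft rise of miR-147, at a log2 fold change of 1.02, passed (SE 0.26, limma adjusted p = 0.010). Under that scaling the median over all tested miRNAs was 0.33 in isografts against normal corneas, where it was 0.05 in RPM. In allografts against normal corneas the median was 0.54, where it was -0.14 in RPM, and miR-155-5p was at 6.10 and miR-147 at 3.96.

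The passenger arm miR-155-3p stayed below the filter, at no more than 4.27 RPM, and was not fitted with limma. On the log2(RPM + 1) scale allografts exceeded normal corneas by 2.08 and isografts by 1.86. Isografts exceeded normal corneas by 0.22 (exact permutation, two-sided p = 0.1 in each comparison, the smallest possible). miR-155-3p had 42, 28 and 47 reads in allografts 12, 34 and 56, 2, 3 and 3 reads in the isografts and 1, 0 and 1 reads in the normal corneas. It was thus well above 3 reads only in the allografts. Of the reads from both arms of the hairpin it made up 1.12%, 0.987% and 0.890% in allografts 12, 34 and 56, 0.521%, 0.489% and 0.532% in isografts 12, 34 and 56, and 1.32%, 0% and 1.16% in normal corneas 12, 34 and 56. In normal cornea 34, 0 of 73 reads allows a share of up to 4.93% by the exact binomial 95% interval. Every allograft lay above every isograft, on 2 or 3 reads of miR-155-3p in each isograft. Over the pooled reads of a group the share was 0.986% in allografts (exact binomial 95% interval 0.816 to 1.18), 0.512% in isografts (0.221 to 1.01) and 0.851% in normal corneas (0.103 to 3.04). These intervals, which cover counting error only, overlap, and the difference was not tested over libraries.

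Other miRNAs of the response to Toll-like receptors and NF-kB were set beside the members. Of a list of 20 such miRNAs, both members included, 15 were tested. Without allograft 34, or without allograft 56, only 12 passed the filter. Some of the 15 thus passed only with these allografts included, and a higher call in allografts is not independent of the filter for them. In allografts against normal corneas 10 were called higher and 1 lower, beside 23.1% and 24.2% over all miRNAs. The list's median log2 fold change was 2.81, beside -0.14 over all miRNAs. The largest were the myeloid miR-223-3p at 5.60 (SE 0.41) and miR-155-5p. miR-146a-5p, an NF-kB-induced brake on receptor signalling, followed at 3.88 (SE 0.36), then miR-21-5p, induced in inflammation and wound repair, at 3.75 (SE 0.34). The smallest, neither past the threshold, were miR-27b-3p at -0.48 (SE 0.35) and miR-9a-5p at -0.25 (SE 0.39). The 1 lower was miR-125b-5p at -1.32 (SE 0.37), named after its value was seen. Lipopolysaccharide is known to lower it in mouse macrophages, but the cause of its lower value here was not tested.

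In isografts against normal corneas 9 of the 15 were called higher and 1 lower, beside 16.7% and 4.63% over all miRNAs. The list's median was 1.19, beside 0.05 over all miRNAs. The largest were miR-223-3p at 3.35 (SE 0.41) and the CREB-responsive miR-132-3p at 2.84 (SE 0.36), then miR-21-5p at 2.64 (SE 0.34) and miR-155-5p, while miR-27b-3p at 0.28 (SE 0.35) and miR-9a-5p at 0.23 (SE 0.39) were the smallest. miR-187-3p, called lower at -1.68 (SE 0.40), was named after its value was seen. Between allografts and isografts 10 were called higher and 2 lower, beside 13.5% and 21% over all miRNAs. The list's median was 1.59, beside -0.29 over all miRNAs. Here miR-155-5p and miR-147 had the largest fold changes of the list, ahead of miR-223-3p at 2.24 (SE 0.41) and miR-21-3p at 2.05 (SE 0.36), and miR-132-3p at -0.16 (SE 0.36) had the smallest, next to miR-9a-5p at -0.47 (SE 0.39). The 2 lower, named after their values were seen, were let-7e-5p at -1.20 (SE 0.36) and miR-125b-5p at -1.04 (SE 0.37). Without isograft 12 and allograft 34, where 12 members were tested, the counts were 7 higher and 1 lower, 7 and 1, and 7 and 3, in the order of the comparisons above. Without allograft 56 they were 7 and 2, 6 and 1, and 6 and 3 of 12, and without allograft 34 alone 7 and none were called between allografts and isografts.

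A list of miRNAs that respond to antigen receptors in lymphocytes had smaller medians. Of its 14 miRNAs 13 were tested, and miR-155-5p, miR-146a-5p and miR-21-5p stand in both lists. Without allograft 34, or without allograft 56, only 12 passed the filter, so here too the filter favoured higher values in allografts. In allografts against normal corneas 8 were called higher and 1 lower, beside 23.1% and 24.2% over all miRNAs. The list's median was 1.19, beside -0.14 over all miRNAs. After the 3 shared miRNAs came miR-18a-5p of the miR-17-92 cluster, which is raised in dividing lymphocytes, at 2.73 (SE 0.35). The smallest were miR-221-3p at -0.57 (SE 0.39) and miR-92a-3p at 0.35 (SE 0.35), neither past the threshold, and the 1 lower was miR-182 at -1.78 (SE 0.34), named after its value was seen, which also stands in the list of epithelial markers. In isografts against normal corneas 4 were called higher and none lower, beside 16.7% and 4.63% over all miRNAs. The list's median was 0.41, beside 0.05 over all miRNAs. The 4 called were miR-21-5p, miR-155-5p, miR-214-3p, a miRNA of fibroblasts as well as activated T cells, at 2.19 (SE 0.41), and miR-146a-5p at 2.09 (SE 0.36). The smallest were miR-19b-3p at -0.03 (SE 0.45) and miR-92a-3p at -0.02 (SE 0.35). Between allografts and isografts 6 were called higher and 1 lower, beside 13.5% and 21% over all miRNAs. The list's median was 1.11, beside -0.29 over all miRNAs. The list was led by miR-155-5p and miR-18a-5p at 2.21 (SE 0.35). Next came miR-146a-5p at 1.79 (SE 0.36), then miR-19a-3p of the miR-17-92 cluster at 1.54 (SE 0.39); the 1 lower was again miR-182, at -1.45 (SE 0.34). The smallest were miR-92a-3p at 0.37 (SE 0.35) and miR-222-3p at -0.26 (SE 0.40). Without isograft 12 and allograft 34, where 12 members were tested, the counts were 9 higher and 1 lower, 5 and 0, and 4 and 3. Without allograft 56 they were 5 and 1, 4 and 0, and 4 and 3 of 12.

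**Figure D3:**
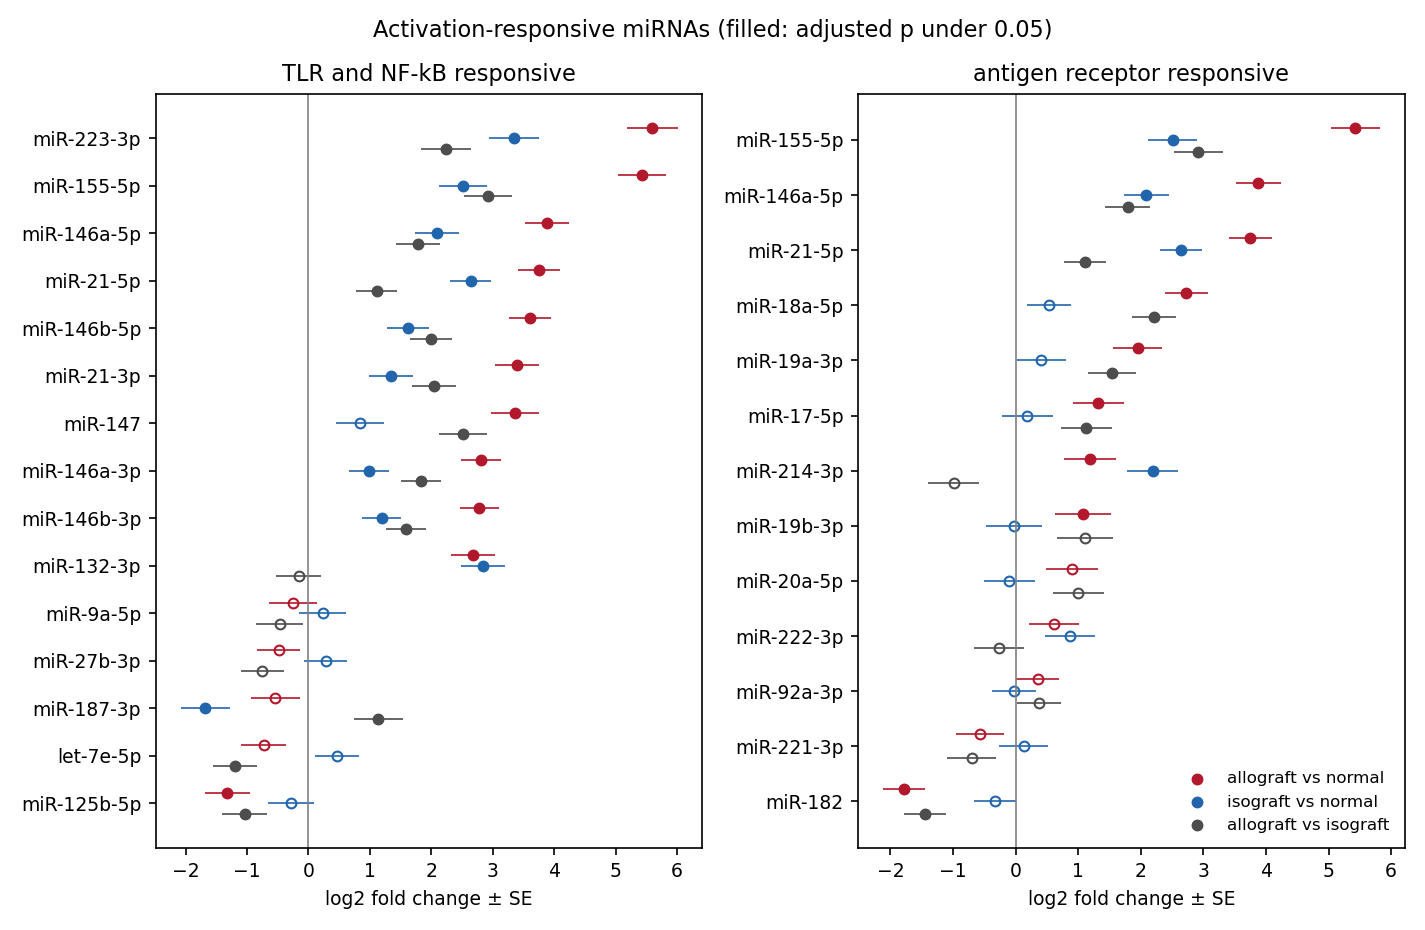
Log2 fold changes (x axis, on the log2(RPM + 1) scale, bars are SE) of the tested miRNAs of both activation lists in the 3 comparisons, filled where the limma adjusted p is under 0.05. miR-155-5p lies far to the right in all 3 comparisons, miR-147 is open in isografts against normal corneas at 0.84, and miR-132-3p is far right in both graft comparisons with normal corneas but at -0.16 between allografts and isografts.

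Most leukocyte miRNAs were higher where miR-155-5p was. Of 12 leukocyte markers 10 were tested, and 8 were called higher in allografts and 7 in isografts against normal corneas, and 8 between allografts and isografts; miR-181a-5p and miR-181b-5p were called in no comparison, none was called lower, and none of the 12 was at 0 throughout a group. Over all miRNAs 23.1%, 16.7% and 13.5% were called higher in these comparisons, and 24.2%, 4.63% and 21% lower. The marker counts in this paragraph stand beside these shares. Their summed level was 3134 to 5842 RPM in allografts, 962 to 2280 RPM in isografts and 1695 to 1962 RPM in normal corneas. Isografts and normal corneas thus overlapped in this sum. Without miR-181a-5p and miR-181b-5p, which other tissues also make, it was 2111 to 3736 RPM in allografts, 152 to 312 RPM in isografts and 54.1 to 67.0 RPM in normal corneas. Leaving these 2 out was not planned and was done with their values known. Markers of the other cell types also differed between the groups. Of 12 epithelial markers 11 were called lower in allografts and 4 in isografts against normal corneas, and 5 between allografts and isografts. Their summed level was 38193 to 92918 RPM in allografts, 162160 to 197808 RPM in isografts and 274968 to 425400 RPM in normal corneas. Of 7 stromal markers 5 were called higher in allografts and 6 in isografts against normal corneas. Between allografts and isografts none was called higher and 2 were called lower, with a median log2 fold change of -0.9. The stromal sums were 11397 to 21573 RPM in allografts, 17134 to 36103 RPM in isografts and 8192 to 10206 RPM in normal corneas. Both arms of the endothelial miR-126a were called higher in allografts and in isografts against normal corneas, and neither between allografts and isografts. Their sums were 2955 to 4874 RPM in allografts, 2095 to 6150 RPM in isografts and 346 to 857 RPM in normal corneas. Of 4 red blood cell markers 2 were tested, and miR-451-5p was called lower in allografts, at -2.61, and in isografts, at -2.73, against normal corneas; the sums were 18.5 to 1068 RPM in allografts, 14 to 181 RPM in isografts and 82.4 to 343 RPM in normal corneas. In bulk tissue more cells of a type and more RNA per cell cannot be told apart, and the part of these cell types in the rise of either member was not tested.

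Within each library the members were set against miR-142-3p, which is made throughout the blood cell lineages. miR-142-3p was at 443, 465 and 667 RPM in allografts 12, 34 and 56, at 11.3, 47.5 and 34.7 RPM in isografts and at 3.995, 1.64 and 2.82 RPM in normal corneas, so its mean in allografts was 187 times that of normal corneas, against 50.5 times for miR-155-5p and 14.9 times for miR-147. The RPM ratio of miR-155-5p to miR-142-3p was 0.761, 0.548 and 0.713 in allografts, 2.79, 1.17 and 1.47 in isografts and 1.70, 4.06 and 2.74 in normal corneas. Every allograft lay below every other library. miR-142-3p had the highest fold change of all 281 tested miRNAs in allografts against normal corneas, 7.13. Between allografts and isografts its 4.22 was near the highest, 4.34. Nearly any other tested miRNA set against it would thus be lower on average in allografts. The direction of the allograft differences was therefore largely set by the choice of miR-142-3p. On the log2(RPM + 1) scale the ratio differed by -1.71 between allografts and normal corneas and by -1.30 between allografts and isografts, with no overlap (exact permutation, two-sided p = 0.1 each, the smallest possible; adjusted 0.129), and by -0.40 between isografts and normal corneas, with overlap (exact permutation p = 0.4, adjusted 0.400). That last value was not stable: it was -0.74 without isograft 12, -0.15 without isograft 34, -0.64 without normal 12, -0.20 without normal 34 and -0.01 with a pseudocount of 5 RPM. Without isograft 12 and allograft 34 the difference between allografts and isografts was -0.82.

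The RPM ratio of miR-147 to miR-142-3p was 0.0614, 0.0525 and 0.0588 in allografts, 0.168, 0.132 and 0.181 in isografts and 0.386, 1.61 and 0.677 in normal corneas. The 3 groups did not overlap, with allografts lowest and normal corneas highest. On the log2(RPM + 1) scale the differences were -3.78 between allografts and normal corneas, -2.07 between isografts and normal corneas and -1.70 between allografts and isografts (exact permutation, two-sided p = 0.1 each, adjusted 0.129). miR-142-3p was also near the top in isografts against normal corneas, at 2.91, where the highest fold change was 3.85 and 2.51 ranked 17 of 281. The direction of these differences was thus largely set by the choice of miR-142-3p. In normal corneas the ratios rest on 17 to 29 reads of miR-147 and 18 to 44 reads of miR-142-3p.

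Against other leukocyte miRNAs the order differed, given here as a description. Over the myeloid miR-223-3p, the log2 ratio of miR-155-5p was -0.11 ± 0.56 in allografts, -0.79 ± 0.21 in isografts and 0.06 ± 0.41 in normal corneas (SD, n = 3 each), lowest in isografts. Over miR-150-5p, which is abundant in resting lymphocytes and falls on their activation, the log2 ratio of miR-155-5p was -1.75 ± 0.19 in allografts, -0.77 ± 0.27 in isografts and -1.94 ± 0.23 in normal corneas, highest in isografts, which did not overlap the other groups. For miR-147 over miR-223-3p it was -3.60 ± 0.43 in allografts, -3.88 ± 0.14 in isografts and -1.36 ± 0.56 in normal corneas, and over miR-150-5p -5.24 ± 0.23 in allografts, -3.87 ± 0.38 in isografts and -3.36 ± 0.33 in normal corneas. The mean ratio of miR-155-5p was thus lower in allografts than in isografts over miR-142-3p and miR-150-5p, and higher, with overlap, over miR-223-3p.

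**Figure D4:**
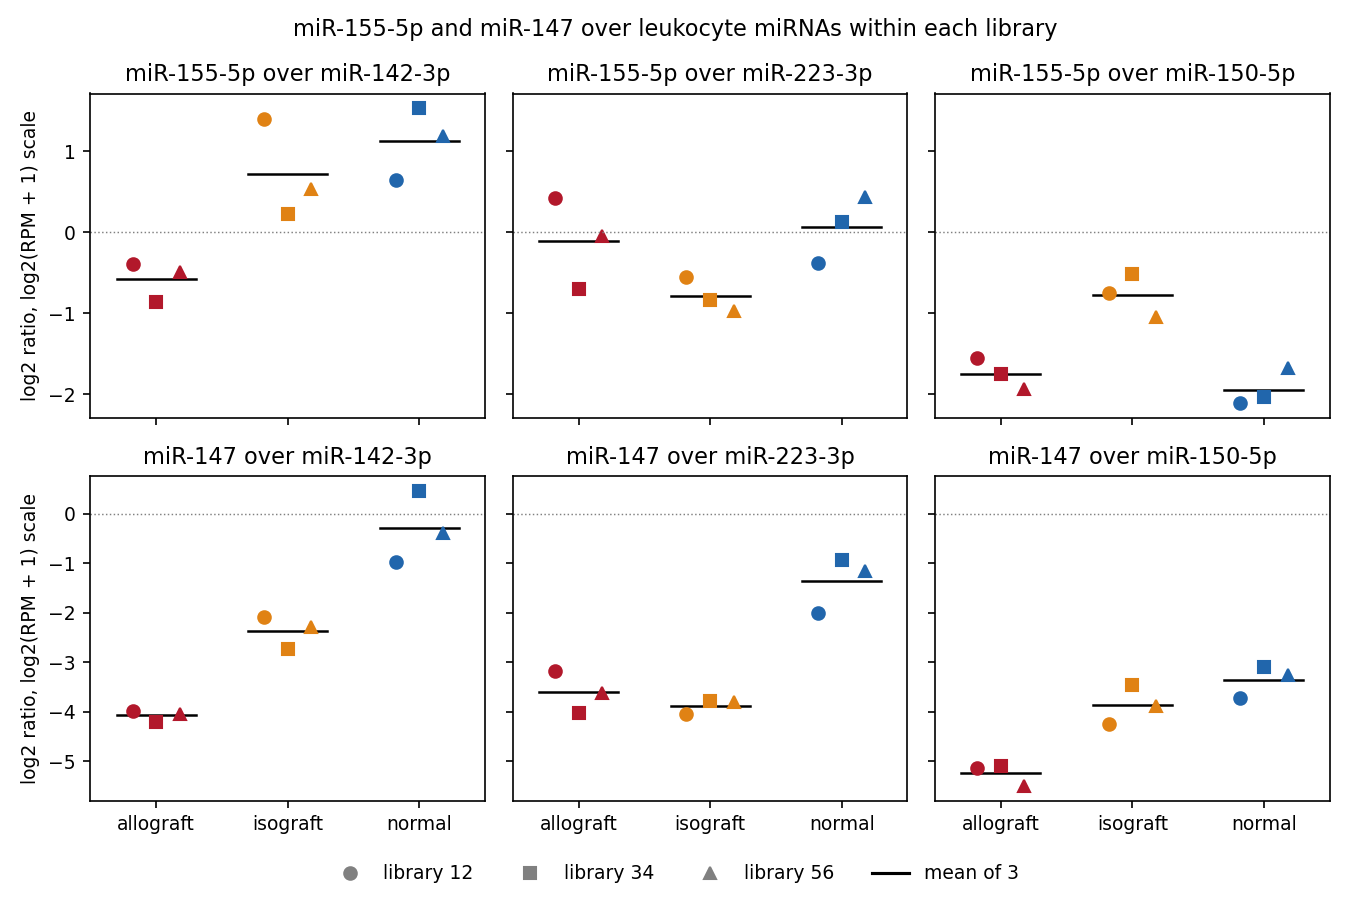
Log2 ratios, on the log2(RPM + 1) scale, of miR-155-5p (top) and miR-147 (bottom) to miR-142-3p, miR-223-3p and miR-150-5p in each library; symbols are libraries 12, 34 and 56 and black lines are means of 3. miR-155-5p over miR-142-3p is lowest in allografts at a mean of -0.58, while over miR-150-5p it is highest in isografts at -0.77.

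Across the 9 libraries the miRNAs most like miR-155-5p, by Pearson correlation of log2(RPM + 1) over the 280 other tested miRNAs, were miR-146b-5p at 0.998, miR-142-5p at 0.994, miR-146b-3p at 0.993, miR-146a-5p at 0.992 and miR-142-3p at 0.991. Both miR-146 genes and both arms of the pan-leukocyte miR-142 are in this set. Those most like miR-147 were miR-18a-5p at 0.986, miR-363-3p at 0.985, miR-150-5p at 0.983, miR-21-3p at 0.983 and miR-146a-3p at 0.980. The 2 sets of 5 have no mature miRNA in common, though each holds 1 arm of miR-146a. The members stood at 0.956 with each other, rank 16 for miR-155-5p and 18 for miR-147. These values describe 9 libraries in 3 groups that share the group means and the RPM denominators, so they follow the order of the groups. After the group means were removed the members correlated at 0.85 in RPM, where the denominator is still shared, and at 0.39 with the sum of listed miRNAs as the denominator. For miR-155-5p and miR-146a-5p these values were 0.95 in RPM and 0.79 on the listed scale, and for miR-147 and miR-21-3p 0.93 and 0.85. Not every likeness was kept on the listed scale. There miR-155-5p stood at 0.2 with miR-146b-5p, the miRNA most like it above, and at 0.37 with miR-146b-3p. With miR-142-5p it stood at 0.75 and with miR-142-3p at 0.87. On that scale miR-147 stood at 0.83 with miR-18a-5p, 0.67 with miR-363-3p, 0.35 with miR-150-5p and 0.59 with miR-146a-3p.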

How the data were processed

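The deposited table gives RPM, computed by the authors, for 765 miRNAs in 9 columns, each matched to 1 library by its title. The submitters' processing notes name bcl2fastq, BWA and the build rn6; versions, trimming, annotation and the handling of multi-mapping reads are not stated there. Per the labels' protocols RNA was extracted with Trizol and libraries made with the TruSeq small RNA kit. Dividing by the step recovered whole reads, within 0.1 read, for 100% of each library's values; 3 reads correspond to 0.247 to 0.273 RPM. RPM depends on the other reads in a library, which the listed miRNAs do not include.

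The filter required 5 RPM or more in 3 libraries or more. Values were log2-transformed with a pseudocount of 1 RPM and fitted for all 9 libraries with limma 3.58.1 (R 4.3.3, mean-variance trend, 6 residual degrees of freedom), with Benjamini-Hochberg adjustment over 281 miRNAs and a threshold of 0.05. As alternatives on the recovered reads, the quasi-likelihood test of edgeR 4.0.16 gave 193, 114 and 163 calls and DESeq2 1.42.0 gave 195, 119 and 171, for allografts against normal corneas, isografts against normal corneas and allografts against isografts. Ratios were compared by exact permutation. Alternatives were other pseudocounts, filters, scalings and variance settings, fits of the groups compared, a block by title number, and libraries left out; those on the lists, and the correlations on the listed scale, were chosen after seeing the data.

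The members and lists were chosen with earlier results of these data known. Named miRNAs are the members, the miR-155-3p arm, the 4 largest and 2 smallest fold changes of each activation list, the neighbours in rank, the 5 most alike and the markers. Sequences and host genes are from RefSeq (GRCr8), not the build of the reads.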

Additional observations from a re-analysis of the deposited data

How the results depend on the processing

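The fold changes of miR-155-5p in all 3 comparisons and of miR-147 in allografts kept their direction and call in each of 118 alternative values. Those of miR-155-5p ranged from 4.86 to 6.10 for allografts against normal corneas, from 2.05 to 2.77 for isografts against normal corneas and from 2.67 to 3.33 for allografts against isografts. Those of miR-147 ranged from 2.31 to 4.01 and from 1.86 to 2.96 in its 2 allograft comparisons. miR-147 fell below a filter at 50 RPM and has no value there.

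miR-147 in isografts against normal corneas passed in 6 of 23 alternatives: 0.74 scaled by the median of ratios, 1.02 scaled to the sum of the listed miRNAs, 1.04 in edgeR, 1.05 in DESeq2, and 1.28 without isograft 12, alone or with allograft 34. Leaving out single libraries gave 0.61 to 1.28. The excess of its second step passed at 1.41 with a pseudocount of 5 RPM, 2.0 scaled by the median of ratios, 1.92 scaled to the sum of the listed miRNAs, 1.92 in edgeR and 1.90 in DESeq2; single libraries left out gave 0.80 to 2.13. That of miR-155-5p passed at 0.72 scaled by the median of ratios and reversed to -0.08 without isograft 12 (range -0.08 to 0.72 over single libraries). The cause was not tested.

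Counts of called miRNAs also moved. A filter at 50 RPM, which tests fewer miRNAs, gave 63, 30 and 44 for allografts against normal corneas, isografts against normal corneas and allografts against isografts. Isografts against normal corneas gave 114 scaled by the median of ratios, 122 scaled to the sum of the listed miRNAs, 114 in edgeR and 119 in DESeq2; allografts against isografts gave 169 scaled by the median of ratios, 163 in edgeR and 171 in DESeq2, and 42 to 146 with single libraries left out. Under median-of-ratios scaling, under RPM without miR-184 and under the sum of listed miRNAs, the calls were 53.3%, 32.7% and 76.3% higher in allografts against normal corneas (48.9% in RPM), 58.8%, 61.3% and 87.7% in isografts (78.3%), and 47.3%, 30.8% and 61.0% in allografts against isografts (39.2%). The medians of both activation lists stayed above 0 under these scalings; the antigen receptor list had 12 calls, against 7, for allografts against isografts under the median of ratios.

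The log2 ratios kept their sign in 99 of 99 alternatives, which for miR-155-5p over miR-142-3p between isografts and normal corneas includes -0.01 with 5 RPM (exact permutation p = 1). The ratio of miR-155-5p to miR-147 between allografts and normal corneas was 1.76 and 2.55 with pseudocounts of 0.1 and 5 RPM, and between allografts and isografts 0.16, 0.28 and 0.95 with 0.1, 0.5 and 5 RPM and 0.68 without isograft 12 and allograft 34. With 5 RPM, miR-155-5p over miR-142-3p was -1.21 between allografts and normal corneas and miR-147 over miR-142-3p was -2.15 between allografts and isografts; miR-155-5p over miR-142-3p was -0.82 there without those 2 libraries. With title numbers as a replicate block 143, 66 and 112 miRNAs were called and the excess of the second step of miR-147, 1.68, passed; no other call on the members changed. The numbers gave no pairing: 2 of 9 same-numbered pairs correlated above 0.1 (range -0.51 to 0.56), and 4 of 18 best matches in another group had the same number. Depth limits miR-147 in normal corneas, at 17 to 29 reads, and miR-155-3p outside the allografts.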
